A study of Mus musculus with 6 samples.

Results

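The comparison of heads with 2 copies of the Prdm15 tm1a allele (Prdm15 tm1a-/-, mutant) against heads with 1 copy (Prdm15 tm1a+/-, heterozygous) was made across all genes. It used 4 of the 6 libraries of the series, 2 for each genotype, chosen by the titles and genotype labels alone. All embryos were C57BL/6 at embryonic day 8.5, and the libraries held polyadenylated RNA from dissected embryo heads. The other 2 libraries came from wild-type heads (Prdm15 tm1a+/+, no copy), and they entered the fit to estimate the spread. Mutant and heterozygous heads therefore share the allele and differ in its copy number. The labels name 2 heads for each genotype without saying that each library is 1 head, and give neither litter nor sex, so each p-value reflects only how far these few libraries differ. A library is called a head below.

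Prdm15 encodes a zinc-finger transcription factor of the PRDM family, and work in mouse embryonic stem cells has placed Rspo1 and Spry1, modulators of Wnt and of FGF signalling, among the genes it activates. The tm1a design is a knockout-first allele, in which a trapping cassette sits in an intron ahead of an exon flanked by recombination sites. At this stage the head holds the open and closing neural folds, and the forebrain is laid out by homeodomain factors such as Otx2, Six3 and Rax, while the Notch, Hedgehog, Wnt and FGF pathways pattern the folds and hold progenitors back from differentiation.

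The level of the targeted gene came first, in CPM, read counts relative to the library's total over genes and scaled with TMM factors. Prdm15 measured 28.3 and 31.8 CPM in the heterozygous heads, 26.6 and 32.0 CPM in the mutant heads, and 35.2 and 32.6 CPM in wild type. The mutant and heterozygous values overlapped, with a log2 fold change of -0.04 (SE 0.12, adjusted p = 0.876). Here and below the log2 fold change is mutant minus heterozygous, its test is edgeR's quasi-likelihood test, and p is adjusted by the Benjamini-Hochberg method over all 15187 genes tested. The counts are summed over the whole gene, so exons on either side of the cassette could not be told apart and this level does not check the genotype labels.

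Libraries held 29412227 to 40439234 reads assigned to 24062 genes. A pair of count files, 1 wild-type (replicate 2) and 1 mutant (replicate 1), carried each other's titles, and by those titles they matched the RPKM columns of the deposited table with 0 genes differing in which values were 0, against 1646 genes under the attachment. Counts were therefore assigned by title. Spearman's rho across genes was 0.992 within the mutant pair and 0.993 within the heterozygous pair. Both mutant libraries were high in Xist (1274 and 1100 CPM), both heterozygous libraries were low (0.35 and 0.27 CPM) and carried Y-linked reads (Ddx3y 45.0 and 41.6 CPM, against 0 in both mutant libraries), so the sex of the embryo and the genotype cannot be told apart within these 4 libraries. The wild-type pair held 1 library of each kind, replicate 2 being high in Xist (1314 CPM). The labelled tissue was represented: neural progenitor genes summed to (plain CPM, as for every list sum) 3446 and 3226 CPM in heterozygous and 3061 and 3301 CPM in mutant heads. Most of each sum came from 2 members, so near-equal sums say little of the others, and the list's median log2 fold change was -0.45. Lin28a held 1300 and 1026 CPM in heterozygous and 1186 and 1236 CPM in mutant heads. Prtg held 991 and 940 CPM in heterozygous and 969 and 1015 CPM in mutant heads. Markers of yolk sac visceral endoderm, the extraembryonic layer that makes plasma proteins, summed to 3218 and 2325 CPM in heterozygous and 5772 and 4842 CPM in mutant heads, against 168 and 181 CPM in wild type.

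More genes passed as lower than as higher in mutant heads, among them Notch3 and Rbpj of the Notch pathway, Gli1, Spry1, Tet1 and Sox1. At an adjusted p under 0.05, 55 genes were lower and 11 higher, 66 of 15187 in all (0.435%; 0.362% lower and 0.0724% higher). Among the 55, 35 fell more than 2-fold, 18 more than 4-fold, 9 more than 8-fold and 5 more than 16-fold, with a median log2 fold change of -1.31. Among the 11, 4 rose more than 2-fold, and the median was 0.65. In each of the 55 both mutant libraries lay below all 4 other libraries, and in each of the 11 both lay above all 4 others. The test that picked these genes favours their place against the heterozygous pair, and only 1 wild-type library was high in Xist. Over all genes tested, 27.6% had both mutant libraries above both heterozygous ones and 26.4% had both below, and the median log2 fold change was 0.00. At an unadjusted p under 0.05 there were 3228 genes (21.3%), 10.5% higher and 10.7% lower.

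The count rests on few libraries. It was 25 without mutant replicate 1, 16 without mutant replicate 2, 79 without heterozygous replicate 1 and 11 without heterozygous replicate 2, and 9 of the 66 passed in all 4 of those fits: Fut10, Cntnap2, Lphn1, Plch1, Scamp1, Satb1, Eps15, Efnb3 and Tet1. Notch3, Gli1 and Spry1 are not among these 9. Rbpj, Sox1 and Stmn2, a neuronal gene described below, passed in none of those fits. With a term for high Xist, which leaves only the wild-type pair to separate sex from genotype, 4 genes passed, all lower: Fut10, Cntnap2, Lphn1 and Plch1. The split between directions also moved: DESeq2 called 699 higher and 614 lower, edgeR's likelihood ratio test 375 and 426, and scaling to the neural progenitor list, which moves the median of all genes to 0.41, 1293 and 94. With the 2 exchanged files kept where they were attached, no gene passed (422 at an unadjusted p under 0.05).

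**Figure D1:**
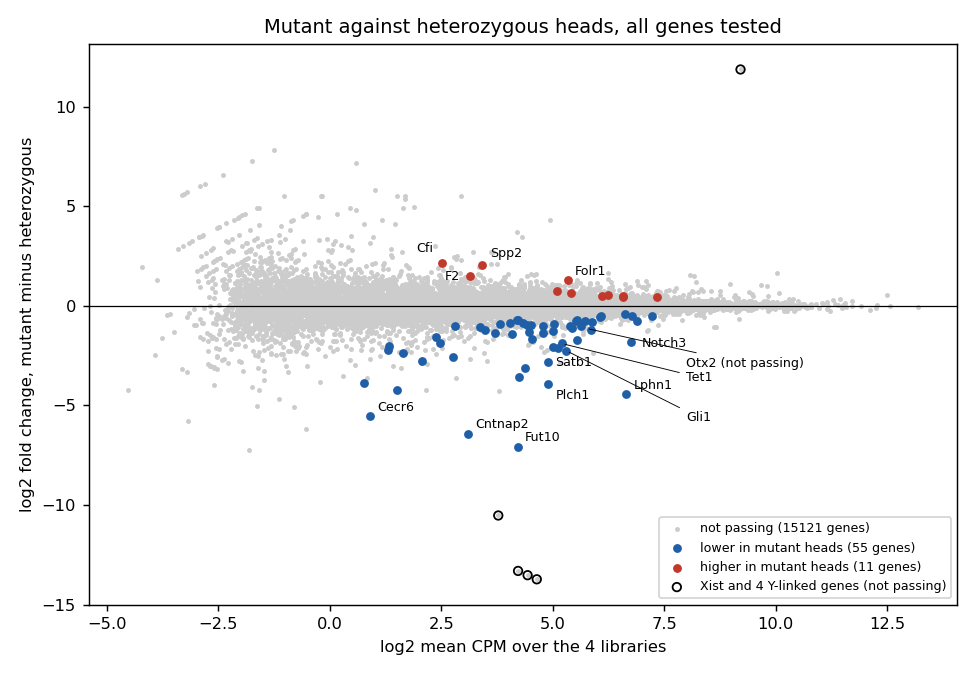
Each point is 1 of the 15187 genes tested, with the log2 of its mean CPM over the 4 mutant and heterozygous libraries on the horizontal axis and its log2 fold change, mutant minus heterozygous, on the vertical axis. The 55 genes that passed as lower (blue) reach -7.08 at Fut10, the 11 that passed as higher (red) reach 2.18 at Cfi, and Xist and 4 Y-linked genes (open circles) lie outside both without passing.

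The same 66 genes can be set beside the other contrasts of the series, which share libraries with this one and so are no independent support. Between heterozygous and wild-type heads, where 6.56% of all genes passed, 7 of the 55 lower genes and 7 of the 11 higher genes passed. Between mutant and wild-type heads, where 30.6% passed, all 55 passed as lower and all 11 as higher. The heterozygous minus wild-type log2 fold change of the 55 ran from -0.94 to 0.30 with a median of -0.19, whereas their mutant minus wild-type median was -1.69. The 55 were chosen by the mutant against heterozygous test, which favours a large difference there, so these values are a description and no comparison of the steps.

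A group of genes was close to silent in both mutant heads. Fut10, a member of the fucosyltransferase family, measured 36.3 and 37.7 CPM in heterozygous and 0.19 and 0.37 CPM in mutant heads. Wild-type heads, at 40.3 and 41.7 CPM, matched the heterozygous ones, and no mutant value came near them. The fall was 132-fold (log2 fold change -7.08, SE 0.21, adjusted p = 0.000468), from 2251 summed reads to 18, and the exact 95% interval of the summed-read ratio ran from 88.9 to 238, covering counting error only.

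Cntnap2, a neurexin-family adhesion protein of axons, measured 16.8 and 17.1 CPM in heterozygous and 0.16 and 0.24 CPM in mutant heads. Wild-type heads held 28.7 and 20.2 CPM, so the 2 genotypes that retained the RNA stood together and far from the mutants. Its log2 fold change was -6.41 (SE 0.29, adjusted p = 0.00176). Cecr6, a transmembrane protein gene now named Tmem121b, measured 4.32 and 2.98 CPM in heterozygous and 0.08 and 0.07 CPM in mutant heads, which is 223 reads against 5. Its ratio of summed reads was 50.2, with an exact 95% interval from 21.2 to 156.

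Lphn1, a latrophilin adhesion receptor, differed with the smallest adjusted p of all genes in this fit. It measured 189 and 195 CPM in heterozygous heads, 9.55 and 8.11 CPM in mutant heads and 194 and 169 CPM in wild type. Residual RNA of Lphn1 was thus well above the counting limit in both mutants, at 597 summed reads, while heterozygous heads were level with wild type. Its log2 fold change was -4.44 (SE 0.11, adjusted p = 0.000362). Plch1, a phospholipase C, measured 58.7 and 53.7 CPM in heterozygous heads and 4.12 and 3.20 CPM in mutant heads, with 80.0 and 66.6 CPM in wild type. Both mutant values lay more than 8-fold below every other library, which gave a log2 fold change of -3.93 (SE 0.16, adjusted p = 0.00166).

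The remaining genes among the 15 largest decreases served varied cell functions. Agap2, an Arf GTPase-activating protein, held 5.83 and 4.93 CPM in heterozygous and 0.29 and 0.27 CPM in mutant heads (19.0-fold lower), and Faah, the hydrolase that breaks down anandamide, held 3.77 and 2.58 CPM against 0.19 and 0.24 CPM (14.9-fold lower). Heph, an X-linked copper-dependent iron oxidase, fell from 40.3 and 29.1 CPM to 2.90 and 2.93 CPM. Scamp1 and Eps15, both membrane-trafficking proteins, fell 8.63-fold and 4.32-fold. Satb1, a chromatin organiser, fell 7.09-fold, from 57.3 and 47.6 CPM to 7.13 and 7.67 CPM, and Osbpl5, an oxysterol-binding protein, 6.88-fold. Scube2, a secreted protein that helps release lipid-modified Hedgehog, fell 5.98-fold, and Sox2ot, a noncoding RNA whose span contains Sox2, 5.11-fold. None of the 15 passed between heterozygous and wild-type heads, where the smallest adjusted p by edgeR's quasi-likelihood test was 0.0869, for Sox2ot.

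**Figure D2:**
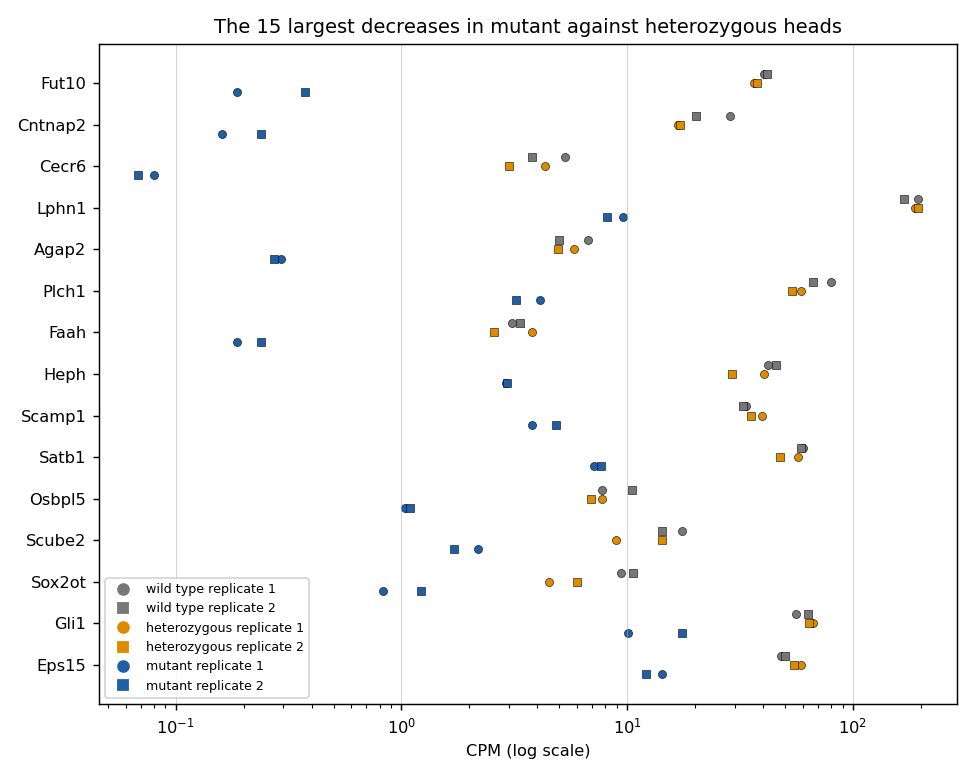
CPM on a log scale in each of the 6 libraries for the 15 genes with the largest decreases, with colour for genotype and shape for replicate. In every row the 2 mutant libraries (blue) lie left of the 4 others, from 4.32-fold at Eps15 to 132-fold at Fut10. The heterozygous libraries (orange) lie lower than the wild-type ones (grey) at Sox2ot (4.51 and 5.96 CPM against 9.41 and 10.6 CPM), which did not pass between those genotypes.

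Start-site sequences were available for 36 of the 55 lower genes and 9 of the 11 higher genes, from a RefSeq promoter table of build GRCm38.p6. The 250 bases before the most upstream listed start are printed 5′ to 3′ for 4 of the lower genes: Cntnap2, with the largest decrease among those with an entry, Notch3 and Sox1, described below as a Notch receptor and a progenitor factor, and Ncan, one of those holding a searched word. Capitals mark TGGGAA or its reverse complement TTCCCA, the core read by the Notch effector Rbpj, and TAATCC or GGATTA, a core read by OTX-type homeodomains. The windows are chr6:45059811-45060060 on the plus strand for Cntnap2, chr17:32166891-32167140 on the minus strand for Notch3, chr8:12395269-12395518 on the plus strand for Sox1 and chr8:70120845-70121094 on the minus strand for Ncan.
Cntnap2: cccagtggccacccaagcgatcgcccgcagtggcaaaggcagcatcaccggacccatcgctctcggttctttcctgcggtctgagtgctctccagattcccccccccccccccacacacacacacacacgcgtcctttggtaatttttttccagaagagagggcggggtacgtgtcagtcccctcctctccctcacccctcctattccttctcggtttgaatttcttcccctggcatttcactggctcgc
Notch3: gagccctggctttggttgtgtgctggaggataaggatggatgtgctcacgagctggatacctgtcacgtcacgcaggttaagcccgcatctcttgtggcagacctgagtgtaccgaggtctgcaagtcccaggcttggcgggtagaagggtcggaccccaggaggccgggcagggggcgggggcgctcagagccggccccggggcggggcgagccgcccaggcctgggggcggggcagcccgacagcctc
Sox1: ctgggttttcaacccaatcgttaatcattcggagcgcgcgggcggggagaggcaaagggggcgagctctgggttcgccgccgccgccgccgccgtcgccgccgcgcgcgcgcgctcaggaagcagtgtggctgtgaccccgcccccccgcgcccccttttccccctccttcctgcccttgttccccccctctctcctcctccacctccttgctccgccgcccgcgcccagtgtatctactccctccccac
Ncan: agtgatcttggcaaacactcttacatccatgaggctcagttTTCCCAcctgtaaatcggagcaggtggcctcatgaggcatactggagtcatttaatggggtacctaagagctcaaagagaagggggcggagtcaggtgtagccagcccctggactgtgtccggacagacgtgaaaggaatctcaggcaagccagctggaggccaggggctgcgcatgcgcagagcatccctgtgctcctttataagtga

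TGGGAA or its complement stood in 5 of the 36 lower promoters (13.9%: Kansl3, Ncan, Plch1, Rbpj and Tet1) and in 20.6% of the 11826 promoters of all tested genes. TAATCC or its complement stood in 1 of the 36 (2.78%, Rtkn) and in 5.0% of all. Neither word was more frequent among the genes that fell than among all genes in windows of this length. The match is a description of letters, and the absence of a word in a window says nothing about binding elsewhere.

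The Notch pathway held 2 genes that fell, its largest receptor change and its nuclear effector. Notch receptors release an intracellular fragment that joins Rbpj on DNA and drives Hes and Hey genes. Notch3 measured 162 and 173 CPM in heterozygous heads, 54.3 and 41.3 CPM in mutant heads, and 177 and 192 CPM in wild type. The groups did not overlap, and heterozygous heads were near wild type. Its log2 fold change was -1.80 (SE 0.13, adjusted p = 0.0103).

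Rbpj measured 146 and 151 CPM in heterozygous and 86.6 and 90.2 CPM in mutant heads, with 163 and 147 CPM in wild type. Every mutant value was below every other value, by a smaller step than for Notch3 (log2 fold change -0.75, SE 0.06, adjusted p = 0.0175). Of 17 Notch genes tested these 2 were lower, against 0.362% of all genes, and none higher, and the list's median was 0.04. In 7 both mutant libraries lay below both heterozygous ones (41.2%, against 26.4% of all genes). In 3 both lay above (17.6%, against 27.6% of all genes). The lists were chosen with earlier results of these data known, so such shares carry no test. Notch1 and Notch2, the other receptors on the list, measured log2 fold changes of 0.14 and 0.04 without passing. Among ligands and modifiers, Jag1 was at -0.61 and the fringes Mfng and Lfng at -1.09 and -0.98 (adjusted p = 0.103, 0.0868 and 0.138 by edgeR's quasi-likelihood test). The target genes did not move in 1 direction: Hes5 was at -1.29, Hes1 at 0.14, Heyl at 0.43 and Nrarp, a feedback target, at 0.75, none passing. Values given for genes that did not pass, apart from Prdm15, Otx2 and the first gene of each list, were picked after they were seen.

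In the Hedgehog pathway 1 of 14 genes tested passed, against 0.435% of all genes. Gli1, a transcription factor that is itself a target of the pathway, measured 66.2 and 63.7 CPM in heterozygous, 10.1 and 17.4 CPM in mutant and 56.1 and 63.4 CPM in wild-type heads. Its 4 non-mutant libraries agreed closely and both mutant libraries were far lower (log2 fold change -2.24, SE 0.25, adjusted p = 0.0385). Arhgap9 overlaps Gli1 in the annotation, and whether counting used strand is not given in the sources used here. The ligand Shh measured 0.10 and the receptor Ptch1, another target, 0.15, with neither passing, and the list's median was 0.03. Nkx2-2, a ventral neural tube target, was at -1.85 (adjusted p = 0.105), while Foxf1, a target in mesoderm, was at 1.31 (adjusted p = 0.105), from 28.3 and 25.6 CPM in heterozygous to 68.4 and 65.8 CPM in mutant heads.

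Of 17 FGF ligand, receptor and feedback genes tested, 1 passed, against 0.435% of all genes. Spry1, an intracellular inhibitor of FGF signalling, measured 27.6 and 35.2 CPM in heterozygous and 12.9 and 12.4 CPM in mutant heads, with 47.9 and 40.2 CPM in wild type. Its values stepped down with each copy of the allele, though the heterozygous step did not pass (adjusted p = 0.111), and the mutant minus heterozygous log2 fold change was -1.31 (SE 0.15, adjusted p = 0.0434). Spry2 and Spry4, its paralogues, measured -0.06 and 0.29, and the ligand Fgf8 -0.05, none passing. The list's median was -0.03. Etv4 and Etv5, transcription factors induced by FGF, were at 0.65 and 0.37 (adjusted p = 0.157 and 0.101), and Fgfr3 at 0.75 (adjusted p = 0.071).

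None of the 21 Wnt ligands, targets and modulators tested passed, and their median was -0.27. Rspo1, a secreted Wnt amplifier, measured 9.82 and 4.66 CPM in heterozygous and 0.80 and 1.23 CPM in mutant heads, with 5.18 and 5.60 CPM in wild type. The groups did not overlap, but the heterozygous pair differed widely, and the log2 fold change of -2.84 (SE 0.43) had an adjusted p of 0.0676. Rspo2 was at -1.76 and Rspo3, another family member, at 1.07 (adjusted p = 0.102 and 0.104). Axin2, a general Wnt target, was at -0.32, and the ligands Wnt1, Wnt3a and Wnt8b at -1.44, -1.46 and -2.17, none passing.

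Planar cell polarity genes, which orient cells in the closing neural plate, gave 0 of 14 passing. In 7 both mutant libraries lay below both heterozygous ones (7 of 14, against 26.4% of all genes) and in 4 above (28.6%, near the 27.6% of all genes). Celsr3, a cadherin of the polarity core, stood just past the threshold at an adjusted p of 0.050, with 25.4 and 23.8 CPM in heterozygous and 16.0 and 15.5 CPM in mutant heads. Celsr2, Fzd3 and Vangl2 were at -0.56, -0.69 and -0.38, each with an adjusted p of 0.0955. None of 18 BMP genes tested passed. Their median was 0.30, 12 had both mutant libraries above both heterozygous ones (66.7% of the list, against 27.6% of all genes), and Bmp4 was at 0.77. Retinoic acid genes, 0 of 15 passing, ranged from -1.46 at Cyp26b1, a degrading enzyme, to 1.64 at Aldh1a2, a synthesising one, whose mutant heads differed widely from each other (66.0 and 164 CPM, against 32.1 and 41.8 CPM in heterozygous heads).

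Neural progenitor genes were lower in a modest and even way. Sox1, an early neural transcription factor, measured 81.0 and 79.2 CPM in heterozygous, 51.2 and 55.9 CPM in mutant and 85.1 and 87.3 CPM in wild-type heads. The 4 non-mutant values lay together above both mutants (log2 fold change -0.58, SE 0.06, adjusted p = 0.0385), and Sox1ot overlaps the gene. It was the 1 of 17 progenitor genes tested that passed, against 0.435% of all genes, and the list's median was -0.45. Sox2, Sox3 and Sox21, of the same family, were at -0.51, -0.49 and -0.97 (adjusted p = 0.0996, 0.0955 and 0.0782), and the RNA-binding protein gene Msi1 at -0.36 (adjusted p = 0.0791).

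Calls with small changes were lost in the scaling that sets the progenitor list itself level, which shifts all genes alike and of which Sox1 is a member, and 43 of the 66 passed there in the same direction. Sox1 was then at -0.18 (adjusted p = 0.409) and Rbpj at -0.35 (adjusted p = 0.124), while Notch3 stayed at -1.38 (adjusted p = 0.00703), Spry1 at -0.91 (adjusted p = 0.0258), Gli1 at -1.87 (adjusted p = 0.00119) and Fut10 at -6.68 (adjusted p = 4.69e-08), all by edgeR's quasi-likelihood test. Relative to the median of all genes in that scaling, Sox1 was at -0.59 and Rbpj at -0.75, as before.

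Genes of early neurons gave 1 of 13 passing, against 0.435% of all genes. Stmn2, a microtubule regulator of growing axons, measured 31.2 and 25.6 CPM in heterozygous and 14.4 and 14.3 CPM in mutant heads, with 32.9 and 36.8 CPM in wild type. The mutant pair was tight and below all others, a log2 fold change of -0.98 (SE 0.12, adjusted p = 0.04998). Tubb3, neuronal tubulin and the first gene of the list, was at -0.95 (adjusted p = 0.102), and the proneural factor Neurog2 at -2.18 (adjusted p = 0.103). The list's median was -0.71, and 10 of the 13 had both mutant libraries below both heterozygous ones (76.9%, against 26.4% of all genes).

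Further neuronal genes stood among the 34 passing genes that the naming rule did not pick and that were singled out after their values were seen. Kif1a, an axonal motor, fell from 34.9 and 35.3 CPM to 12.6 and 9.27 CPM (log2 fold change -1.68). Map2, a dendritic microtubule protein, fell by 1.37 on the log2 scale, Ncan, a proteoglycan of neural matrix, by 1.55, and the synaptotagmins Syt7 and Syt11 by 1.41 and 1.03. Crmp1, an axon guidance mediator, fell by 0.79 and Nova2, a neuronal splicing factor, by 0.73. Efnb3, a membrane-bound guidance ligand, fell from 48.8 and 55.2 CPM to 13.3 and 11.7 CPM (log2 fold change -2.06, SE 0.10, adjusted p = 0.00255). The homeobox gene Cux2 and the cadherin gene Cdh20 fell by 2.0 and 1.84.

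Among 8 genes of DNA methylation tested, 1 passed, against 0.435% of all genes. Tet1, which oxidises 5-methylcytosine on the way to its removal, measured 58.6 and 57.0 CPM in heterozygous, 16.9 and 14.3 CPM in mutant and 62.0 and 58.3 CPM in wild-type heads. Heterozygous and wild-type values were level and the mutant values stood apart from them (log2 fold change -1.89, SE 0.10, adjusted p = 0.00288). Its relatives Tet2 and Tet3 were at -0.09 and -0.08 and the maintenance methyltransferase Dnmt1 at -0.16, none passing. The next genes were picked after their values were seen and stand for no list. Zmym3, an X-linked zinc-finger gene, fell by 1.34 (adjusted p = 0.00314), Kansl3, a subunit of an acetyltransferase complex, by 1.02, and Ints10 and Cpsf3, which act in RNA 3′-end processing, by 1.13 and 0.50. Tk1, thymidine kinase, fell from 44.6 and 45.7 CPM to 19.2 and 18.8 CPM (log2 fold change -1.25), and Afmid overlaps it. No gene of the 15 on the proliferation list passed, and that list's median was 0.03.

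Genes of the forebrain and eye field were lower as a list without any single call. Otx2 measured 75.4 and 71.9 CPM in heterozygous, 42.5 and 24.9 CPM in mutant and 109 and 86.1 CPM in wild-type heads. Each mutant value was below each heterozygous value, and the mutant pair was spread more widely (SD 12.5 CPM, n = 2) than the heterozygous pair (SD 2.51 CPM, n = 2). The log2 fold change of -1.12 (SE 0.25) gave an adjusted p of 0.103. Of 22 forebrain genes tested 0 passed, 19 had both mutant libraries below both heterozygous ones (86.4%, against 26.4% of all genes), and 18 had an unadjusted p under 0.05 in that direction (against 10.7% of all genes). The list's median was -1.54. Members with more than 3 reads in each genotype ran from -4.23 at Rax to -0.33 at Foxd1. Fewer forebrain cells and less RNA in each cell cannot be told apart in whole heads.

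The eye field factor Rax measured 7.83 and 9.05 CPM in heterozygous and 0.75 and 0.10 CPM in mutant heads. Wild-type heads held 15.2 and 11.3 CPM, so heterozygous heads lay between. Its log2 fold change was -4.23 (SE 0.64, adjusted p = 0.0676). Six3, a repressor of Wnt genes in the forebrain, measured 43.3 and 43.3 CPM in heterozygous and 16.0 and 4.33 CPM in mutant heads (log2 fold change -2.07, adjusted p = 0.129), with mutant replicate 2 the lower. The same replicate was the lower of the pair for Otx2, Rax, Emx2 (2.45 and 0.75 CPM), En1 (16.1 and 4.77 CPM) and Egr2 (4.71 and 2.28 CPM), but not for Fezf2 (0.67 and 0.78 CPM).

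Across the midbrain and isthmus 1 of 15 genes tested passed, against 0.435% of all genes. It was Spry1, which the list shares with the FGF genes, and the list's median was -0.72. The midbrain factors En1 and Dmbx1 were at -1.79 and -1.34, and Pax5, of the midbrain-hindbrain boundary, at -1.95 (adjusted p = 0.136, 0.0875 and 0.0955). Fgf8, the organising ligand of that boundary, was at -0.05. Hindbrain genes gave 0 of 15 passing and a median of 0.02, with 5 having both mutant libraries below and 5 above the heterozygous ones (33.3% each way, against 26.4% and 27.6% of all genes). Egr2, a factor of rhombomeres, measured 13.5 and 23.2 CPM in heterozygous and 4.71 and 2.28 CPM in mutant heads (log2 fold change -2.37, adjusted p = 0.0782). Hoxb1, another rhombomere gene, stood the other way, at 17.6 and 23.6 CPM in heterozygous and 30.7 and 47.3 CPM in mutant heads (log2 fold change 0.92, adjusted p = 0.121).

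**Figure D3:**
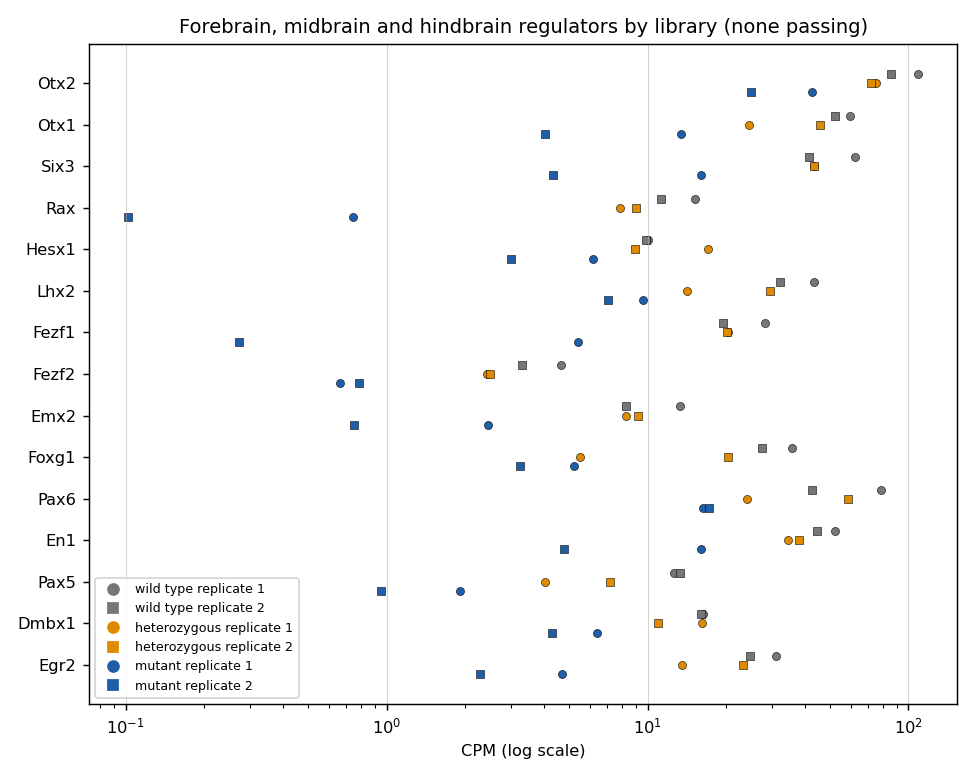
CPM on a log scale in each library for 15 regulators of forebrain, midbrain and hindbrain, none of which passed. Both mutant libraries (blue) lie left of both heterozygous ones (orange) in each row, and mutant replicates 1 and 2 are often far apart, as at Six3 (16.0 and 4.33 CPM).

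Neural crest genes gave 0 of 18 passing, with a median of -0.60 and 11 having both mutant libraries below both heterozygous ones (61.1%, against 26.4% of all genes). Here the heterozygous heads themselves differed. Sox10, which marks migrating crest, measured 4.35 and 48.8 CPM in heterozygous, 1.65 and 1.09 CPM in mutant and 104 and 129 CPM in wild-type heads, and Tfap2b, another crest factor, 3.03 and 23.2 CPM in heterozygous and 1.62 and 0.44 CPM in mutant heads. Heterozygous replicate 1 was the lower of its pair for both genes. Erythroid genes divided the same pair, at 31.2 and 267 CPM summed, against 51.0 and 34.1 CPM in the mutants.

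**Figure D4:**
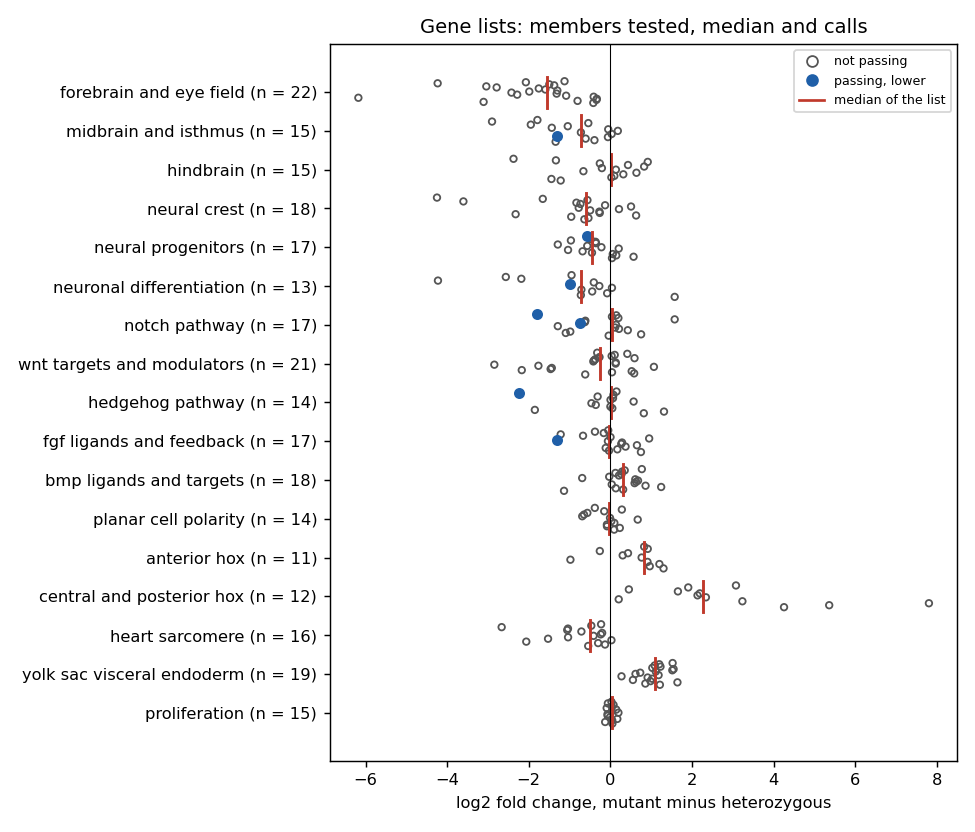
Log2 fold change, mutant minus heterozygous, of every tested member of 17 gene lists, with a red bar at each list's median and filled points for members that passed. The forebrain median lies at -1.54, the visceral endoderm median at 1.09 and the central and posterior Hox median at 2.27, while the filled points are Spry1 (in 2 lists), Sox1, Stmn2, Notch3, Rbpj and Gli1.

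The 11 genes that rose fell into plasma protein and epithelial genes on one side and small rises of broadly used genes on the other. Cfi, complement factor I, measured 2.16 and 1.98 CPM in heterozygous, 9.82 and 8.89 CPM in mutant and 0.44 and 0.43 CPM in wild-type heads. The genotypes formed 3 separate levels (log2 fold change 2.18, SE 0.18, adjusted p = 0.0172). Spp2, a secreted phosphoprotein, held 3.90 and 4.36 CPM in heterozygous and 19.8 and 14.9 CPM in mutant heads, and 0 in both wild-type heads (log2 fold change 2.07). F2, prothrombin, rose from 5.06 and 4.19 CPM to 14.1 and 11.9 CPM (log2 fold change 1.49), and Ckap5 overlaps it.

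Folr1, a folate receptor, rose from 25.6 and 21.6 CPM to 60.7 and 54.2 CPM, with 0.87 and 0.88 CPM in wild type (log2 fold change 1.28, SE 0.11, adjusted p = 0.0175). Cldn7 and Lad1, both of epithelia, rose by 0.73 and 0.65 on the log2 scale. All 6 of these genes were also higher in heterozygous than in wild-type heads (adjusted p from 0.000597 at F2 and Folr1 to 0.00806 at Cldn7). The visceral endoderm list moved with them: 18 of its 19 tested members had both mutant libraries above both heterozygous ones (94.7%, against 27.6% of all genes), its median was 1.09 and its highest-ranked member, Afp, had a log2 fold change of 1.53 (adjusted p = 0.0602), with 155 and 140 CPM in heterozygous and 484 and 365 CPM in mutant heads. None of the 19 passed. The part of that tissue in these rises was not tested.

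The other 5 genes that rose were Smarcd2, a chromatin remodelling subunit, Usp3, a deubiquitinase, Impdh1, of guanine nucleotide synthesis, Isyna1, of inositol synthesis, and Gpx4, a lipid peroxide reductase. Their log2 fold changes ran from 0.44 at Gpx4 to 0.57 at Smarcd2. Gpx4 was also higher in heterozygous than in wild-type heads (log2 fold change 0.32, adjusted p = 0.0271), and Smarcd2 and Impdh1 were at 0.25 and 0.24 there without passing. Usp3 measured 56.2 and 56.8 CPM in heterozygous, 81.3 and 80.6 CPM in mutant and 56.2 and 54.3 CPM in wild-type heads. Its 4 non-mutant values were level, and the rise passed with an adjusted p of 0.0385. No higher call was left without heterozygous replicate 2, 1 without mutant replicate 2 and 3 without mutant replicate 1, against 17 without heterozygous replicate 1.

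**Figure D5:**
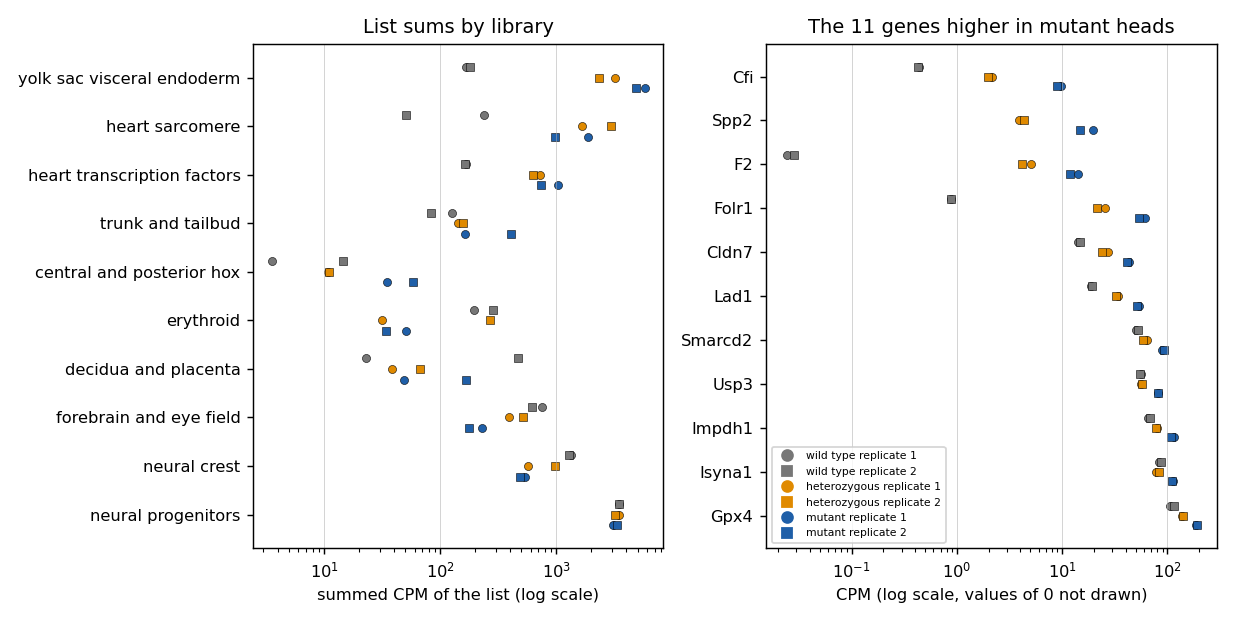
Left, summed CPM of 10 gene lists in each library; right, CPM of the 11 genes higher in mutant heads, both on log scales. The visceral endoderm sum is 5772 and 4842 CPM in mutant, 3218 and 2325 CPM in heterozygous and 168 and 181 CPM in wild-type heads, and on the right both mutant libraries lie right of all others in each row.

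Genes of other tissues and of more caudal levels gave no calls, with wide spread between heads. Central and posterior Hox genes, which are used behind the head, had a median of 2.27 over 12 tested, and 10 had both mutant libraries above both heterozygous ones (83.3%, against 27.6% of all genes). Hoxb8 measured 2.67 and 2.01 CPM in heterozygous and 7.82 and 16.0 CPM in mutant heads (log2 fold change 2.34, adjusted p = 0.0746), and Cdx2, a caudal regulator, 3.86 and 2.81 CPM against 10.2 and 33.6 CPM. Mutant replicate 2 was the higher for both genes. It was also the higher for the trunk and tailbud sum (165 and 407 CPM in mutant, 141 and 156 CPM in heterozygous heads).

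Heart transcription factors summed to 723 and 631 CPM in heterozygous and 1039 and 744 CPM in mutant heads, and sarcomere genes to 1675 and 2966 CPM against 1869 and 977 CPM, with 0 of 13 and 0 of 16 genes passing. The sarcomere sums overlapped between mutant and heterozygous heads. Wild-type heads were lower, at 166 and 162 CPM for the transcription factors and 239 and 50.8 CPM for the sarcomere genes. Granzymes and other decidual and placental genes summed to 48.7 and 166 CPM in mutant, 38.1 and 66.7 CPM in heterozygous and 22.7 and 465 CPM in wild-type heads, so that wild-type replicate 2 was the highest, and none of the 12 tested passed. Head mesenchyme genes, 0 of 14 passing, had a median of 0.26, and axial mesendoderm genes, 0 of 14 passing, a median of 0.52. Pdgfra, a receptor of head mesenchyme, was at 0.41 (adjusted p = 0.0782).

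Lists for cell state also held no calls. Of 13 p53 and apoptosis genes tested, 10 had both mutant libraries above both heterozygous ones (76.9%, against 27.6% of all genes), with a median of 0.25 and Cdkn1a, a cell cycle inhibitor, at 0.78 (adjusted p = 0.26). Of 15 stress response genes 10 did so (66.7%), with a median of 0.23. Of 17 glycolysis and hypoxia genes, 11 had both mutant libraries below both heterozygous ones (64.7%, against 26.4% of all genes), with a median of -0.21. None of the 14 tested members of the PRDM family passed, and their median was -0.18. Prdm6 measured 1.05 and Prdm16 -0.64, and Prdm13 held 2 and 0 reads in mutant and 3 and 63 reads in heterozygous heads. Surface ectoderm and placode genes (16 tested), foregut endoderm (15), endothelium (13), epiblast (15), cholesterol synthesis (16) and anterior Hox genes (11) also gave 0 passing, with medians of 0.07, 0.11, 0.17, 0.80, -0.11 and 0.83.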

How the data were processed

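The 6 RNA-seq libraries of embryo heads were analysed, 2 per genotype. The authors deposited raw read counts per gene symbol, made with TopHat2 2.0.11 and HTSeq 0.6.1p2 on mm10 after trimming with Trim Galore 0.4.0 and cutadapt 1.8, per the submitters' processing notes; no annotation or strand setting is named there. The authors' deposited table holds RPKM per library and, from edgeR 3.8.6 per the same notes, log2 fold changes, a likelihood ratio score and p-values, of which only the RPKM columns entered a result. RPKM also decided, by title, which library each count file belongs to. The 5 summary lines of each count file (such as 8.93% to 10.5% of read pairs in no gene) were left out.

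Counts were fitted with edgeR 4.0.16 in R 4.3.3: TMM factors, genes filtered by expression within groups, 1 mean per genotype over all 6 libraries, 3 residual degrees of freedom, quasi-likelihood test, Benjamini-Hochberg adjustment over 15187 genes, threshold 0.05. The standard error is the log2 fold change over the root of F. The scripts were tested on simulated counts with 100 genes changed 2-fold and 100 changed 4-fold. Of 133 calls at the same threshold 14 were false, and 47% of the 2-fold and 72% of the 4-fold changes were recovered. Named genes were Prdm15, Otx2, the 15 largest changes in each direction among passing genes with a mean of at least 1 CPM over the 4 libraries and no overlap, and of each list its first gene and up to 4 passing members. The members and the 35 gene lists were chosen with earlier results of these data known. Alternatives used limma 3.58.1 and DESeq2 1.42.0. Gene positions are from RefSeq by Entrez identifier, found for 64 of the 66 passing genes, 17 of which overlap another gene; reads of overlapping genes may be shared. Figures were drawn with matplotlib 3.10.9.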

Additional observations from a re-analysis of the deposited data

How the results depend on the processing

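The 66 passing genes (11 higher, 55 lower) were recounted under other settings. Scaling by size factors gave 66 (13 higher, 53 lower; 63 of the 66 passed in the same direction), limma-voom 49 (13 higher, 36 lower; 44 of the 66), library sizes without genes of other tissues 73 (13 and 60; all 66), and limma on log2(RPKM + 0.1) 60 (13 and 47; 53 of the 66). Without the filter on low counts 182 passed (54 higher, 128 lower), with DESeq2 1313 (699 and 614) and with edgeR's likelihood ratio test 801 (375 and 426), each including all 66. The 4 libraries alone gave 106 (48 and 58; 53 of the 66), limma on log2(RPKM + 1) 115 (53 and 62; 56 of the 66) and the same with no filter on genes 19 (5 and 14; 15 of the 66). Scaling to the neural progenitor list gave 1387 (1293 and 94). Leaving out 1 library gave 11 to 79 genes, 0 to 17 higher and 11 to 62 lower, and 33 of the 66 passed in none of these 4 fits; an arm of 1 library is assumed to vary like the others. A term for high Xist, added after seeing the data, gave 4 (0 higher, 4 lower). Keeping each file where it was attached, the quasi-likelihood test gave 0 (0 higher, 0 lower; 422 at an unadjusted p under 0.05), limma-voom 0 (363 at an unadjusted p under 0.05), DESeq2 98 (92 and 6) and the likelihood ratio test 140 (133 and 7), none of them among the 66; the last 3 were added after seeing the data. With files as attached, Sox2ot was at 0.18 by the quasi-likelihood, DESeq2 and likelihood ratio fits, and limma-voom put Cfi at -0.20, Cldn7 at -0.10, F2 at -2.93, Folr1 at -1.95, Lad1 at -0.14 and Spp2 at -3.43. No gene passing in the fit by title changed sign under any alternative that kept files by title. Beyond the exchange of libraries and the smaller sets of genes or libraries, the cause was not tested.

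No paired analysis was possible because the titles carry animal numbers or letters that differ between genotypes, so that replicate numbers, given in accession order, pair nothing. With 2 libraries in each arm, 7 of the 66 genes passed in all 15 alternatives that kept files by title and had no Xist term: Fut10, Lphn1, Plch1, Scamp1, Satb1, Eps15 and Efnb3. Genes with 3 reads or fewer over a genotype (such as Nr2e1 of the forebrain list, and Hoxa9 and Hoxa10 of the Hox list) have no fold of their own here, and the list medians were the same with them at their bound (-1.54 and 2.27).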

Other observations

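Some genes that passed belong to none of the lists. The glypicans Gpc4 and Gpc6, cell-surface proteoglycans that bind growth factors, both fell, by 0.93 and 0.90 on the log2 scale (adjusted p = 0.0447 and 0.023 by edgeR's quasi-likelihood test), and Gpc4 is X-linked. Gpc4 measured 19.6 and 17.5 CPM in heterozygous, 10.2 and 9.20 CPM in mutant and 18.0 and 17.8 CPM in wild-type heads. It did not pass with the term for high Xist. Insr, the insulin receptor, fell from 65.3 and 66.8 CPM to 42.0 and 37.4 CPM. Zinc-finger genes Zfp704, Zfp521, Zfp395, Zfp609 and Zfp41 fell by 1.69, 1.19, 0.99, 0.53 and 0.51, and these genes were singled out after their values were seen.

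The 64 passing genes with a known position lay on 19 chromosomes, 3 on X (Heph, Zmym3 and Gpc4) and 0 on Y. Lphn1 and 2610034M16Rik had no position.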
